A study of Mus musculus with 24 samples.

Results

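The hippocampal RNA of 24-month female (XX) mice with and without brain aromatase was compared by bulk RNA sequencing. The 6 libraries with the labels female, 24 months and *bArKO* or Control were taken from a series of 24, giving 3 *bArKO* and 3 Control libraries. The *bArKO* mice carried *Arom* fl/fl, an aromatase gene with loxP sites, together with *Nestin-Cre* on a C57BL/6J background. Their controls were age-matched littermates of the *Arom* fl/fl line. *Nestin-Cre* drives deletion in the neural lineage, and aromatase in gonads and other tissues is kept. Because the description of the controls names no Cre, an effect of the *Nestin-Cre* transgene cannot be told apart from one of the deletion. The other 18 libraries were 24-month males and 6-month mice of both sexes, and they are used here only for comparison. Libraries are called Control 1, 2 and 3 and *bArKO* 1, 2 and 3 by the replicate number of their labels, and the numbers do not pair mice across groups. The question was which genes, pathways and cell type markers beyond extracellular matrix genes differed between the genotypes, with and without Control 3.

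Aromatase, encoded by *Cyp19a1*, converts androgens into estrogens, and in the rodent brain it is made by neurons and by some astrocytes. Estrogens act through the nuclear receptors ERα (*Esr1*) and ERβ (*Esr2*) and the membrane receptor GPER1 (*Gper1*). In the hippocampus, estradiol is known for its effects on dendritic spines and on synaptic plasticity of CA1 pyramidal neurons.

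The labels were checked first. *Cyp19a1* had 1, 0 and 0 reads in Control 1, 2 and 3 and 3, 2 and 3 reads in *bArKO* 1, 2 and 3. These counts were at or under a floor of 3 reads, so the loss of its RNA could not be seen in these libraries. *Esr2* was likewise at 0 reads in each Control library and at 0, 3 and 3 reads in the *bArKO* libraries. *Esr1* was at 2.18, 3.07 and 1.79 CPM (read counts relative to the TMM-scaled size of their library) in Control 1, 2 and 3 and at 2.34, 2.30 and 2.39 CPM in *bArKO* 1, 2 and 3. *Gper1* was at 3.75, 2.09 and 3.84 CPM and at 3.56, 4.06 and 3.78 CPM in the same order. The groups overlapped for both receptors. *Xist*, the RNA that silences an X chromosome in XX cells, was at 639, 828 and 180 CPM in the Control libraries and at 606, 770 and 710 CPM in the *bArKO* libraries, against at most 1.09 CPM in the 6 males of the same age. All 6 libraries thus carried the RNA of XX cells, with the lowest level in Control 3. Markers of hippocampal neurons were present in all 6, among them *Prox1* of dentate granule neurons at 106 to 178 CPM and *Mpped1* of CA1 neurons at 249 to 301 CPM.

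Depth differed between the genotypes. The counts summed to 11852576, 8290204 and 7615391 reads in Control 1, 2 and 3 and to 18872054, 13113858 and 12672623 reads in *bArKO* 1, 2 and 3, so every *bArKO* library was deeper than every Control library. A gene with no read in Control 3, the smallest library, could still have been present at up to 0.384 CPM, taking 3 reads as the limit, and this covers counting error only. Mitochondrial genes took 8.32% to 11.3% of the reads in these 6 libraries.

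Control 3 and *bArKO* 2 stood apart from the others. In a principal component analysis of the 12 libraries of 24-month mice, Control 3 lay at 51.4 on component 1, which held 28.7% of the variance, and the other 11 libraries lay between -14.6 and 4.47. *bArKO* 2 had the lowest value on component 2, at -22.1. In Control 3 the mean log2 level of genes with long exonic sequence, relative to genes with short exonic sequence, was -0.41, against -0.12 in *bArKO* 1 and -0.02 to 0.11 in the other 10 libraries. Its mean rank correlation with the other 5 female libraries was 0.977, and the other 5 had means of 0.988 to 0.990. Both libraries were also the highest in markers of the choroid plexus, the epithelium that makes cerebrospinal fluid. The 13 choroid plexus genes summed to 184, 642 and 4158 CPM in Control 1, 2 and 3 and to 103, 3243 and 240 CPM in *bArKO* 1, 2 and 3, and *Ttr* (transthyretin) made up most of each sum. Results are therefore given with all 6 libraries and without Control 3. Other libraries are named for some, but not all, of the values that moved when they were left out.

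**Figure D1:**
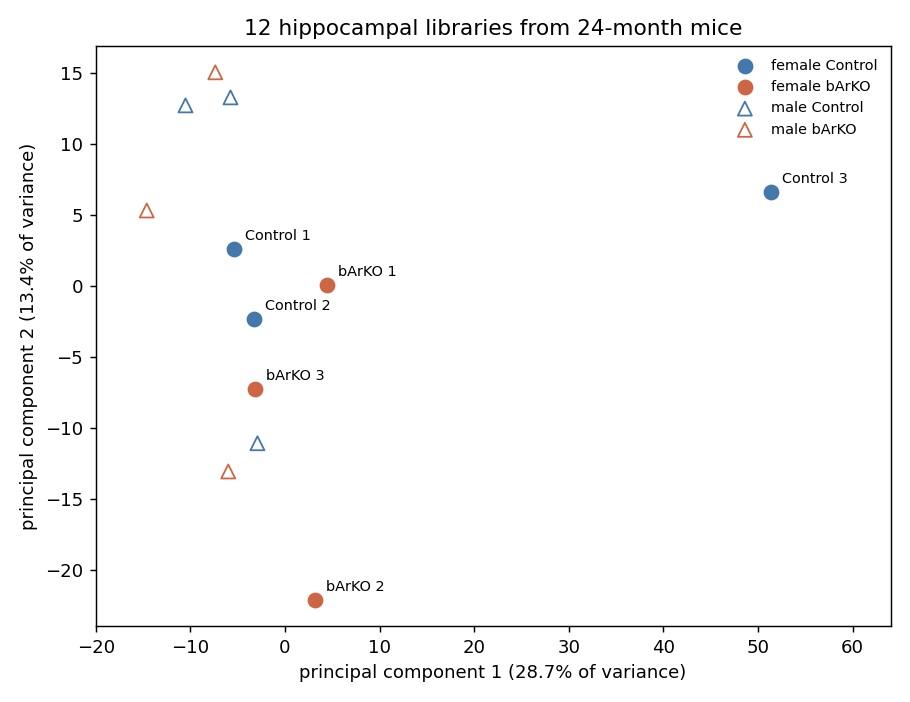
Principal components 1 (28.7% of the variance) and 2 (13.4%) of log2 CPM in the 12 hippocampal libraries of 24-month mice, with 1 point per library, filled for females and open for males, blue for Control and orange for *bArKO*. Control 3 of the females lies alone at 51.4 on component 1, and *bArKO* 2 of the females is lowest on component 2, at -22.1.

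Across the whole table no gene passed the test. To be called differentially expressed (DEG), a gene needed an adjusted p (Benjamini-Hochberg) under 0.05 and a log2 fold change beyond 0.5 in either direction. With edgeR's quasi-likelihood test, fitted to the 12 libraries of 24-month mice, 0 of 15412 genes were DEGs (0% of genes tested), and the smallest adjusted p was 0.956. At an unadjusted p under 0.05, 275 genes were higher in *bArKO* mice (1.78% of genes tested) and 236 were lower (1.53%), fewer in all than the 770.6 that chance alone gives. Without Control 3, 0 of 15766 genes were DEGs (0%), the smallest edgeR adjusted p was 0.826, and 325 genes were higher (2.06%) and 334 lower (2.12%) at an unadjusted p under 0.05. DESeq2 gave 0 DEGs on the same 12 libraries and 1 on the 6 female libraries, with 542 and 288 genes at an unadjusted p under 0.05. Without Control 2, edgeR gave 2 DEGs, and 1024 genes were at an unadjusted p under 0.05. Without Control 1 there were 0 DEGs by edgeR and 955 such genes. Without a filter on low counts, edgeR gave 86 DEGs, of which 68 were among the 15412 genes. *Lars2*, *Mir6236*, *Tenm4* and *Cplx3* were among those 68, as were *Dcn*, *Col1a1*, *Ogn*, *Ccn2* and *Slc17a6*. The 68 also held genes whose calls rested on single libraries. These included *Ighm* and *Igkc*, high in Control 3 alone, and *Tph1* and *Rbp3*, concentrated in *bArKO* 2. *Ttr*, high in Control 3 and *bArKO* 2 and overlapping between the genotypes, was called too.

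Because no gene passed, genes and gene lists are described by their values and by whether the genotypes overlapped. All 3 *bArKO* libraries lay above all 3 Control libraries for 653 of 15412 genes (4.24%) and below them for 538 (3.49%). Without Control 3 the shares were 10.7% above (1690 of 15766 genes) and 9.82% below (1548 genes), since 2 Control libraries are easier to clear than 3. In the 24-month males 606 of 15412 genes (3.93%) lay above and 586 (3.80%) below in every *bArKO* library. The median log2 fold change over all genes tested was 0.01 with all libraries and 0.01 without Control 3. In all, 61 gene lists were described, each against these shares and this median. Where a count of members stands alone, it is to be read against 4.24% above or 3.49% below with all 6 libraries. Without Control 3 the shares are 10.7% or 9.82%, and in 24-month males 3.93% or 3.80%. Leaving out each of the 6 libraries in turn, the median turned sign at least once in 32 of the 61 lists, most of them with medians near 0.

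The 5 genes that the study names for this comparison were higher in all 3 *bArKO* libraries. *Dcn* (decorin, a proteoglycan that binds collagen fibrils) was at 9.58, 7.01 and 17.4 CPM in Control 1, 2 and 3 and at 25.6, 25.9 and 29.1 CPM in *bArKO* 1, 2 and 3. *Col1a1* (a chain of type I collagen) was at 5.66, 5.90 and 5.77 CPM and at 10.9, 11.03 and 15.7 CPM in the same order. *Ogn* (osteoglycin, another small proteoglycan) was at 7.14, 5.53 and 7.95 CPM and at 12.8, 13.6 and 17.04 CPM. Control 3 was the highest Control library for *Dcn* and *Ogn*, and *bArKO* 3 was the highest *bArKO* library for these 3 genes. *Ccn2*, a secreted protein of the matrix that YAP and TEAD factors induce, was at 3.75, 4.42 and 7.56 CPM in Control 1, 2 and 3 and at 12.2, 10.9 and 13.6 CPM in *bArKO* 1, 2 and 3. *Slc17a6* (VGLUT2, which loads glutamate into vesicles, chiefly in neurons outside the hippocampal pyramidal layer) was at 10.5, 10.2 and 9.23 CPM and at 19.9, 15.7 and 30.1 CPM. The log2 fold changes were 1.26 for *Dcn*, 1.12 for *Col1a1*, 1.07 for *Ogn*, 1.24 for *Ccn2* and 1.13 for *Slc17a6*, with standard errors of 0.46, 0.51, 0.47, 0.70 and 0.60. Without Control 3 they were 1.67, 1.12, 1.17, 1.59 and 1.08. The standard errors also carry the spread of the 24-month males in the fit. In those males *Dcn* lay at 9.91 to 33.9 CPM and *Slc17a6* at 5.71 to 67.2 CPM. For each gene the exact two-sided permutation test over the 6 libraries gave p = 0.1, the smallest that 3 mice against 3 allow. All 5 were DEGs with edgeR when no count filter was used and in no other setting. The study chose these genes on the same samples, so their direction is not independent evidence. It called all 5 upregulated with DESeq2 at the same thresholds, whereas DESeq2 on the 12 libraries gave 0 DEGs here. By qPCR in old females the paper found *Col1a1*, *Ccn2*, *Dcn* and *Ogn* significantly higher in *bArKO* mice. On its immunoblots DCN and SLC17A6 protein were similar, while OGN tended higher and CCN2 lower without reaching significance.

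**Figure D2:**
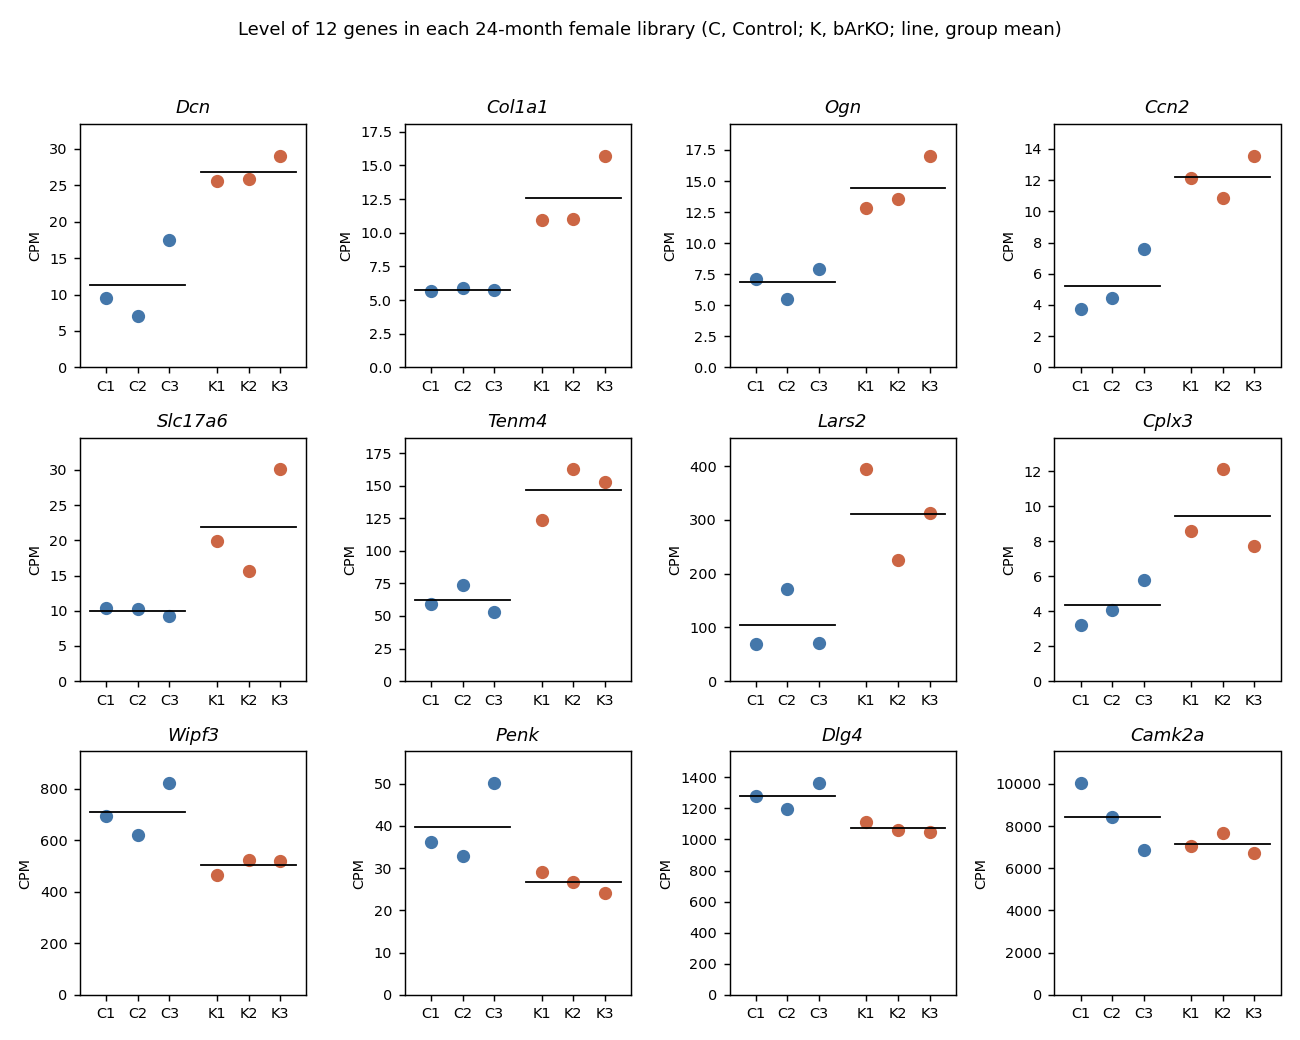
Level in CPM of 12 genes in each 24-month female library, with Control 1 to 3 as C1 to C3 in blue, *bArKO* 1 to 3 as K1 to K3 in orange, and a line at each group mean. For *Tenm4* the 3 *bArKO* libraries lie at 124 to 162 CPM and the 3 Control libraries at 52.8 to 74.0 CPM, and for *Dlg4* they lie at 1050 to 1112 and at 1199 to 1362 CPM.

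Markers of meningeal fibroblasts, the collagen-producing cells of the membranes that cover the brain, were higher in *bArKO* mice as a list. All 10 matrix genes of these cells had a positive log2 fold change, and the median log2 fold change was 1.05. Of the 10, 6 were higher in every *bArKO* than in every Control library, against 4.24% of all genes. Their levels summed to 79.2, 64.3 and 128 CPM in Control 1, 2 and 3 and to 138, 151 and 195 CPM in *bArKO* 1, 2 and 3, with *Islr* the most abundant. Control 3 was the highest Control library and lay under *bArKO* 1. Without Control 3 the median was 1.17 and all 10 genes did not overlap, against 10.7% of all genes above. Within the list *Lum* (lumican) was at 2.87, 2.58 and 4.61 CPM and at 4.84, 8.88 and 7.02 CPM in the same order, a log2 fold change of 1.04 with a standard error of 0.38. *Islr* was at 16.3, 13.03 and 30.1 CPM and at 19.7, 23.7 and 24.7 CPM, so its groups overlapped through Control 3. No marker of this list was at 0 in any library.

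The second fibroblast list held transporters, transcription factors and enzymes in place of matrix proteins, and it moved the same way. Of its 14 genes tested, 13 were higher, and the median log2 fold change was 0.70 (1.00 without Control 3). Of the 14, 5 were higher in every *bArKO* library, against 4.24% of all genes. Without Control 3 it was 11 of 14, against 10.7%. The sums were 67.8, 59.4 and 95.99 CPM in Control 1, 2 and 3 and 93.8, 86.8 and 136 CPM in *bArKO* 1, 2 and 3, so the sums overlapped. *Osr1*, a transcription factor of mesenchymal cells, was at 0.697, 0.737 and 1.41 CPM and at 1.43, 1.91 and 3.08 CPM. *Aldh1a2*, which makes retinoic acid in the meninges, was at 5.14, 3.69 and 10.5 CPM and at 13.9, 8.65 and 21.4 CPM. *Cyp1b1*, a cytochrome P450 that hydroxylates estradiol, was at 7.58, 4.79 and 7.56 CPM and at 8.82, 9.88 and 12.2 CPM. *Osr1* and *Cyp1b1* did not overlap between the genotypes, whereas *Aldh1a2* of Control 3 lay above *bArKO* 2. *Slc13a3*, the most abundant gene of the list, was at 16.96 to 19.6 CPM in Control and at 16.1 to 23.3 CPM in *bArKO* libraries, a log2 fold change of 0.10.

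Among matrix families, fibrillar collagens with small leucine-rich proteoglycans moved most. All 16 genes tested had a positive log2 fold change, and the median was 0.85 (0.92 without Control 3, with 13 of 16 higher). Of the 16, 8 were higher in every *bArKO* library, against 4.24% of all genes. Without Control 3 it was 10 of 16, against 10.7%. The sums were 157, 157 and 185 CPM in Control 1, 2 and 3 and 215, 236 and 257 CPM in *bArKO* 1, 2 and 3, and these sums did not overlap. The list shares *Dcn*, *Col1a1*, *Ogn*, *Lum* and other genes with the fibroblast matrix list, so the 2 lists are not separate evidence. *Col5a1*, which sets the diameter of collagen fibrils, was at 3.22, 4.06 and 1.79 CPM and at 5.69, 5.44 and 6.71 CPM. *Prelp*, the most abundant member, was at 41.4 to 58.7 CPM in Control and at 42.8 to 53.8 CPM in *bArKO* libraries, and its log2 fold change was 0.00. Genes of the basement membrane, the sheet under vessels and epithelia, had a median of 0.28 (0.22 without Control 3, 0.43 without *bArKO* 1, and 0.06 without both Control 3 and *bArKO* 2), and 2 of 21 did not overlap, both higher. *Hspg2* (perlecan) was at 13.8, 16.5 and 16.1 CPM and at 15.4, 24.8 and 22.0 CPM, so *bArKO* 1 lay below Control 2 and 3, and *Agrn* (agrin), the most abundant member, overlapped as well, with a log2 fold change of 0.03. Perineuronal net genes and brain lecticans, the matrix made by neurons and glia, had a median of -0.07 (-0.16 without Control 3) and 0 of 12 outside the overlap. In bulk tissue, more cells of a type and more RNA per cell cannot be told apart, and whether the amount of meninges in the dissected tissue had a part in these values was not tested.

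**Figure D3:**
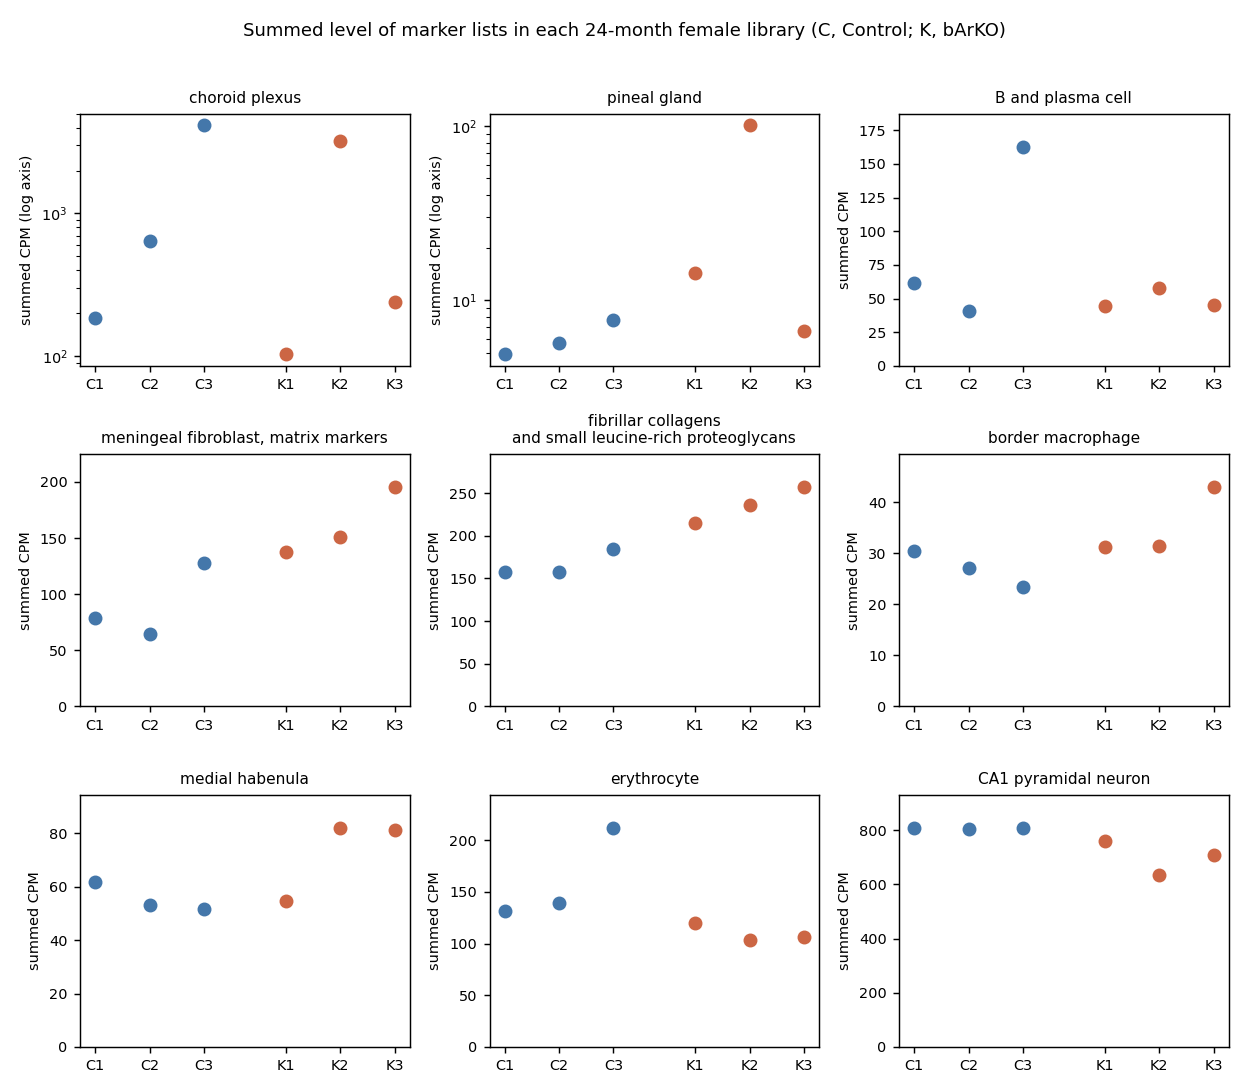
Summed CPM of 9 marker lists in each 24-month female library, with Control 1 to 3 as C1 to C3 in blue and *bArKO* 1 to 3 as K1 to K3 in orange. The vertical axis is logarithmic for choroid plexus and pineal gland genes, which peak in Control 3 (4158 CPM) and in *bArKO* 2 (101 CPM), and it starts at 0 in the other panels, where fibrillar collagens and proteoglycans lie at 157 to 185 CPM in Control and at 215 to 257 CPM in *bArKO* libraries.

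Other cells of the brain's borders and vessels showed a graded picture. Border macrophages, the macrophages of meninges and perivascular spaces, had 7 of 7 genes higher, 2 not overlapping, and a median log2 fold change of 0.85 (0.94 without Control 3, with 6 of 7 higher, and 0.51 without *bArKO* 3). Their sums were 30.4, 27.0 and 23.5 CPM in Control 1, 2 and 3 and 31.2, 31.4 and 42.9 CPM in *bArKO* 1, 2 and 3. *Mrc1* (the mannose receptor CD206) was at 4.09, 1.72 and 2.82 CPM and at 5.05, 4.29 and 8.02 CPM, with *bArKO* 3 the highest. *Clec10a* was at 0.435, 0.246 and 0.128 CPM and at 0.478, 0.919 and 1.31 CPM, all low, whereas *Stab1*, the most abundant member, overlapped at 15.1 to 22.5 CPM in Control and 20.03 to 21.8 CPM in *bArKO* libraries. Smooth muscle genes had a median of 0.57 (0.48 without Control 3), with 2 of 6 not overlapping. That median was 0.31 without Control 2, 0.37 without *bArKO* 3 and 0.37 without Control 3 when the count filter was applied anew. With edgeR it was 0.37 without a count filter and 0.38 with a filter of 10 counts in each library. It was 0.38 with DESeq2 on the 12 libraries, which tested 31707 genes against 15412 in the main fit. *Myh11* (smooth muscle myosin) was at 11.4, 8.73 and 6.66 CPM and at 16.3, 12.02 and 17.7 CPM, and *Acta2* (smooth muscle actin) at 7.93, 6.88 and 11.3 CPM and at 18.5, 10.6 and 17.5 CPM. The sums of this list were 48.3, 40.6 and 39.5 CPM and 61.4, 58.7 and 59.7 CPM, which did not overlap, with *Mylk* the most abundant. Endothelial genes (median 0.16, 1 of 15 not overlapping) and pericyte genes (median 0.08, 0 of 9) lay nearer to the median of all genes. Without Control 3 their medians were 0.09 and 0.02. The endothelial median was 0.08 without *bArKO* 3 and 0.21 without Control 1, and the pericyte median was 0.16 without Control 2.

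In neurons, the postsynaptic scaffold was the list with the most members lower in *bArKO* mice. Of 21 genes, 19 had a negative log2 fold change, 4 were lower in every *bArKO* library, 1 was higher, and the median was -0.09 (-0.16 without *bArKO* 2). *Dlg4* (PSD-95, the main scaffold of excitatory synapses) was at 1277, 1199 and 1362 CPM in Control 1, 2 and 3 and at 1112, 1063 and 1050 CPM in *bArKO* 1, 2 and 3, a log2 fold change of -0.25 with a standard error of 0.08. *Camk2b*, a subunit of the calcium-dependent kinase of the synapse, was at 1525, 1348 and 1752 CPM and at 1254, 1229 and 1348 CPM, where Control 2 and *bArKO* 3 differed by less than 1 CPM. *Camk2a*, the most abundant member, was at 10032, 8426 and 6885 CPM and at 7044, 7661 and 6724 CPM, so its groups overlapped only through Control 3. *Dlg1* (SAP97) went the other way, at 114, 117 and 95.4 CPM and at 129, 131 and 132 CPM, for a log2 fold change of 0.27 with a standard error of 0.09. Without Control 3 the median of the list was -0.23, and 20 of 21 genes were lower, 14 of them in every *bArKO* library, against 9.82% of all genes. The sums were 19335, 17193 and 15350 CPM in Control 1, 2 and 3 and 14669, 15640 and 14693 CPM in *bArKO* 1, 2 and 3. Control 3, the library with fewer reads on long genes, thus lay under *bArKO* 2, and the part of that feature in the larger value without it was not tested.

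Markers of pyramidal neurons were lower in part. Of 7 CA1 genes, 3 were lower in every *bArKO* library, against 3.49% of all genes. The median log2 fold change was -0.16 (-0.18 without Control 3, -0.25 without *bArKO* 1). The CA1 sums were 808, 805 and 810 CPM in Control 1, 2 and 3 and 762, 635 and 707 CPM in *bArKO* 1, 2 and 3, which did not overlap. *Fibcd1* was at 169, 159 and 212 CPM and at 145, 127 and 132 CPM, *Spink8* at 38.3, 34.3 and 39.0 CPM and at 33.2, 27.9 and 20.5 CPM, and *Mpped1*, the most abundant, at 300, 301 and 287 CPM and at 287, 249 and 261 CPM. The last of these differed by less than 1 CPM between Control 3 and *bArKO* 1. CA2 genes had a median of -0.27 (-0.17 without Control 3) and CA3 genes of -0.13 (-0.13, and -0.21 without *bArKO* 2). *Rgs14*, which limits plasticity in CA2, was at 135, 117 and 170 CPM and at 117, 115 and 104 CPM, and *Bok*, the most abundant CA3 marker, at 130, 116 and 139 CPM and at 109, 108 and 82.1 CPM. Neither overlapped, but *Rgs14* differed by less than 1 CPM between Control 2 and *bArKO* 1. *Coch*, another CA3 marker, went the other way, at 1.13, 4.18 and 5.13 CPM and at 5.79, 7.81 and 5.17 CPM, where Control 3 and *bArKO* 3 also differed by less than 1 CPM. Dentate granule genes had a median of 0.03 (0.06 without Control 3) with 0 of 7 outside the overlap, GABAergic interneuron genes of 0.02 (0.03) with 0 of 12, Cajal-Retzius genes of -0.01 (-0.14) with 0 of 5, and genes of newborn neurons of 0.18 (0.06) with 0 of 8. The Cajal-Retzius median was 0.38 without Control 2, 0.14 without Control 1 and 0.15 without *bArKO* 2, and the newborn neuron median was 0.34 without Control 2. The dentate median was -0.17 without *bArKO* 3 and 0.14 without *bArKO* 1.

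The ventral hippocampus list had the highest median among the hippocampal neuron lists. It had a median log2 fold change of 0.59 (0.58 without Control 3), with all 4 genes higher and 2 not overlapping, but *Dcn* is a member of this list as well. *Nr2f2*, a transcription factor, was at 7.23, 9.09 and 9.23 CPM in Control 1, 2 and 3 and at 10.3, 13.7 and 13.1 CPM in *bArKO* 1, 2 and 3. *Htr2c* (a serotonin receptor), the most abundant member, was at 12.9, 24.0 and 25.2 CPM and at 16.05, 39.9 and 24.3 CPM and overlapped. The sums were 31.2, 42.2 and 52.9 CPM and 53.7, 82.8 and 68.6 CPM.

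Other genes of transmission were taken by list. Presynaptic vesicle genes had a median log2 fold change of -0.01 (-0.03 without Control 3), and *Cplx2* (complexin 2), the most abundant, was lower in every *bArKO* library, at 2457, 2104 and 2462 CPM and at 1882, 2041 and 2075 CPM. Ionotropic glutamate receptors had a median of 0.01 (-0.11) with 0 of 17 outside the overlap. Their most abundant member *Gria1* (the AMPA receptor subunit GluA1) was at 1126, 1030 and 1156 CPM and at 883, 925 and 1035 CPM. The medians were 0.12 (-0.07) for metabotropic glutamate receptors, -0.04 (-0.12) for glutamate transporters, 0.05 (-0.09) for GABA receptors, -0.07 (0.05) for neuropeptides and 0.13 (0.21) for monoamine and acetylcholine synthesis, which was 0.05 without *bArKO* 2. The ionotropic, metabotropic, GABA receptor and neuropeptide medians changed sign when Control 3 was left out. Immediate early genes, which mark recent activity, had a median of -0.02 (-0.10) with 0 of 19 outside the overlap.

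Genes of structures that lie beside the hippocampus were examined next. Medial habenula genes had a median log2 fold change of 0.44 (0.54 without Control 3), 9 of 11 were higher and 4 did not overlap. The median was 0.22 with edgeR on the 6 female libraries and 0.21 when the replicate number was added to that fit as a block. It was 0.21 with a filter of 10 counts in each library and 0.27 after thinning. It was 0.74 with edgeR without a count filter and 0.76 with DESeq2 on the 12 libraries. DESeq2 tested 31707 genes there, against 15412 in the main fit. In 24-month males the same list had a median of 0.75, with 11 of 11 higher and 2 not overlapping, and in 6-month females the median was 0.29. The female sums were 61.7, 53.2 and 51.5 CPM in Control 1, 2 and 3 and 54.5, 82.2 and 81.3 CPM in *bArKO* 1, 2 and 3, with *Nwd2* the most abundant. *Chrnb4*, a nicotinic receptor subunit, was at 0.261, 0.492 and 0.769 CPM and at 1.91, 16.9 and 1.00 CPM, and *Chrna3*, its partner subunit, at 0.871, 0.492 and 1.79 CPM and at 1.97, 6.36 and 2.16 CPM. For both, *bArKO* 2 stood far above the other *bArKO* libraries, and without it the log2 fold changes were 1.60 and 0.99 in place of 3.73 and 1.73. The defining factor *Pou4f1* was at 0 in Control 2 and 3 and the subunit *Chrnb3* at 0 in Control 3. *Slc17a6*, a gene of habenula and thalamus, was in contrast highest in *bArKO* 3. The part of habenula tissue in its level was not tested.

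Pineal gland genes were concentrated in *bArKO* 2. The 4 genes of 9 that could be tested summed to 4.88, 5.65 and 7.69 CPM in Control 1, 2 and 3 and to 14.4, 101 and 6.63 CPM in *bArKO* 1, 2 and 3. *Tph1*, the first enzyme of melatonin synthesis and the most abundant member, was at 0.348, 0.246 and 0.128 CPM and at 4.198, 43.0 and 0.540 CPM. *Rbp3* was at 0.174, 0.123 and 0.128 CPM and at 2.55, 38.1 and 0.694 CPM, and *Sag* (arrestin) at 1.92, 1.47 and 2.95 CPM and at 3.77, 14.9 and 2.24 CPM. The Control libraries held few reads of *Tph1* and *Rbp3*, so the median log2 fold change of 3.81 (3.82 without Control 3 on the same genes) is a fitted value and no estimate of size, and without *bArKO* 2 it was 1.88. Leaving out *bArKO* 3 gave 6.46, Control 1 gave 6.31, and Control 2 gave 5.61. It was 0.95 with edgeR on the 6 female libraries and 0.96 with a filter of 10 counts in each library. The marker *Gngt1* had no read in any of the 6 libraries.

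Choroid plexus genes had 0 of 13 outside the overlap and a median log2 fold change of -0.06. The sign rested on single libraries, since the median was 1.32 without Control 3, -2.34 without *bArKO* 2, 0.39 without *bArKO* 1 and 0.29 without *bArKO* 3. *Ttr* was at 110, 533 and 3852 CPM in Control 1, 2 and 3 and at 57.2, 2845 and 173 CPM in *bArKO* 1, 2 and 3. Genes of the ependyma, which lines the ventricles, likewise went from 0.10 to 0.41 without Control 3, to -0.53 without *bArKO* 2 and to -0.11 without Control 1. Thalamus genes had a median of 0.20 (0.01 without Control 3, 0.40 without Control 1), neocortex genes of 0.05 (0.10) and striatum genes of -0.10 (-0.16), which was 0.06 without Control 2, 0.04 without *bArKO* 1, -0.31 without Control 1 and -0.23 without *bArKO* 2. Of these 3 lists only the thalamus list had members outside the overlap, 2 of 9. *Tshz2*, the most abundant neocortex marker, was at 25.5, 55.7 and 28.8 CPM and at 85.8, 54.0 and 117 CPM, so *bArKO* 2 lay within the range of Control libraries.

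Glia were described by 6 lists. Of 20 oligodendrocyte and myelin genes, 19 were higher but 0 did not overlap, and the median log2 fold change was 0.17 (0.18 without Control 3). *Mbp*, the most abundant, was at 3855, 6059 and 4006 CPM in Control 1, 2 and 3 and at 5810, 5911 and 3747 CPM in *bArKO* 1, 2 and 3, so the libraries split within each genotype. *Aspa*, which supplies acetate for myelin lipids, was at 15.7, 26.7 and 15.9 CPM and at 33.1, 31.2 and 19.8 CPM. Without Control 1 the median of the list was 0.01 and without Control 2 it was 0.38. Precursor genes had a median of 0.05 (0.04 without Control 3, 0.13 without Control 2 and 0.006 without Control 1). *Pdgfra*, their receptor for platelet-derived growth factor, was at 58.2, 61.1 and 35.8 CPM and at 62.3, 63.9 and 75.5 CPM. Astrocyte genes had a median of 0.05 (-0.03 without Control 3) and reactive astrocyte genes of 0.13 (0.18, and -0.02 without *bArKO* 2). The astrocyte glutamate transporter *Slc1a2* was at 7181, 6535 and 3340 CPM and at 5805, 6106 and 5782 CPM, with Control 3 alone low. Microglia genes had a median of 0.02 (-0.03) and disease-associated microglia genes of 0.09 (0.10, and -0.01 without *bArKO* 1 or -0.02 without *bArKO* 2). *Siglech*, a microglial lectin, was lower in every *bArKO* library, at 25.6, 26.4 and 27.0 CPM and at 23.9, 18.6 and 19.0 CPM, whereas *Ctss*, the most abundant microglial marker, overlapped at 144 to 166 CPM in Control and 130 to 191 CPM in *bArKO* libraries.

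B and plasma cell genes had 2 members tested, with sums of 61.3, 40.9 and 163 CPM in Control 1, 2 and 3 and of 44.1, 57.9 and 45.3 CPM in *bArKO* 1, 2 and 3. *Ighm* was at 120 CPM and *Igkc* at 42.5 CPM in Control 3, and in the other 5 libraries they were at 39.1 to 57.2 CPM and at 1.72 to 10.3 CPM. The median of this list went from -1.02 to 0.46 without Control 3 and to -1.82 without Control 2. T and NK cell genes, with 3 members tested at sums of 1.31 to 3.08 CPM, had a median of -0.15 (0.05 without Control 3), which was -1.01 without *bArKO* 1 and -0.54 without Control 2. Hemoglobin and *Alas2*, the erythrocyte list, were lower in all 5 members, and 3 did not overlap. The erythrocyte sums were 132, 139 and 212 CPM and 120, 103 and 106 CPM, the median was -0.57 (-0.26 without Control 3), and *Hbb-bs*, the most abundant, was at 91.5, 92.3 and 142 CPM and at 81.8, 69.7 and 67.5 CPM. The amount of blood left in the tissue was not measured.

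Interferon response genes had 15 of 17 members higher, 1 not overlapping (5.88%, against 4.24% of all genes), and a median log2 fold change of 0.24 (0.35 without Control 3, 0.09 without *bArKO* 2). *Isg15*, a ubiquitin-like protein induced by interferon, was at 1.92, 1.35 and 1.79 CPM and at 2.71, 2.68 and 2.08 CPM. In 24-month males the same list had a median of -0.56, and in 6-month females the median was -0.69. In the males 8 of 17 genes were lower in every *bArKO* library, against 3.80% of all genes. Antigen presentation genes had a median of 0.10 (0.28 without Control 3, 0.02 without Control 2). With all libraries 0 of 15 members lay above the Control libraries, against 4.24% of all genes. Without Control 3 it was 8 of 15, against 10.7%. The median of this list was -0.20 in 24-month males and -0.21 in 6-month females. Complement genes had a median of 0.23 (0.35), which was -0.09 without *bArKO* 2 and 0.09 without Control 2. *C4b*, the most abundant complement gene, overlapped at 107, 155 and 104 CPM and at 137, 190 and 110 CPM.

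**Figure D4:**
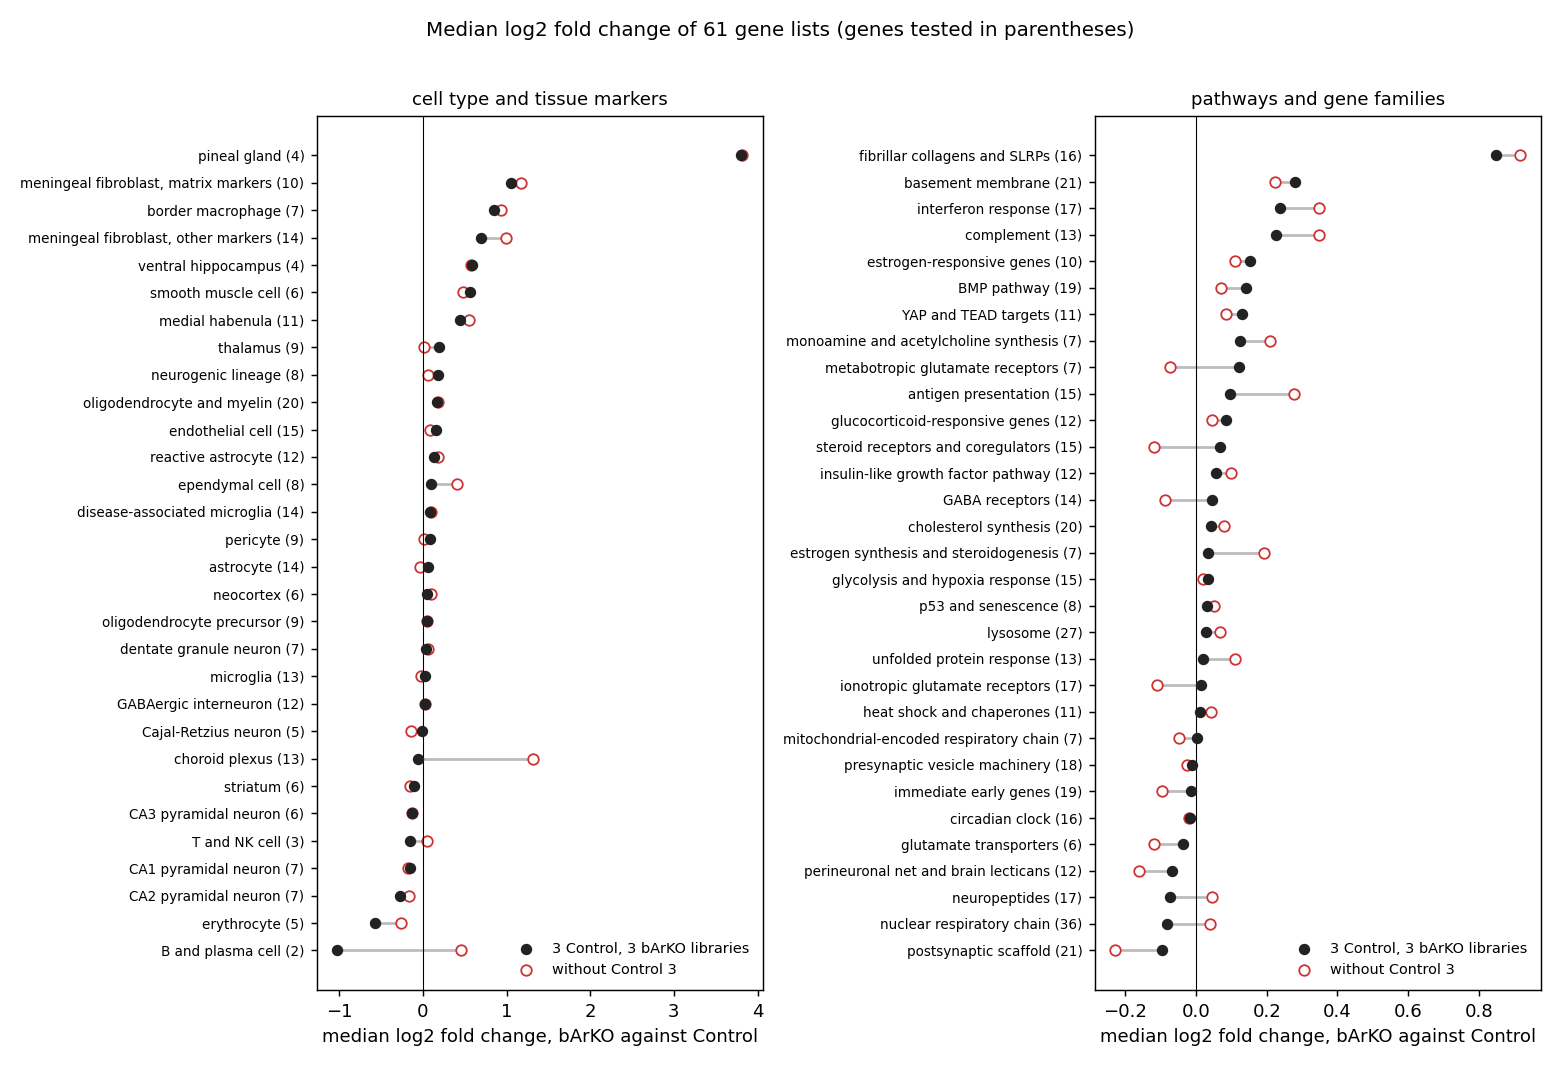
Median log2 fold change, *bArKO* against Control, of 61 gene lists in 24-month females, with the number of genes tested in parentheses, filled points for all 6 libraries and open points without Control 3. Meningeal fibroblast matrix genes lie at 1.05 and 1.17, the postsynaptic scaffold at -0.09 and -0.23, and choroid plexus genes move from -0.06 to 1.32. The pineal value of 3.81 rests on few Control reads.

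Lists tied to estrogen and other steroids had medians of 0.04 to 0.15 with all 6 libraries. Genes of steroid synthesis had 7 of 14 members tested, and their median log2 fold change was 0.04 (0.19 without Control 3) with 0 outside the overlap. Steroid receptors and coregulators had a median of 0.07 (-0.12 without Control 3), with 1 of 15 outside the overlap. That gene, *Esrrg* (estrogen-related receptor gamma, which binds no estrogen), was at 10.97, 10.8 and 8.97 CPM in Control 1, 2 and 3 and at 14.5, 16.9 and 20.8 CPM in *bArKO* 1, 2 and 3. Without Control 3, 11 of 15 receptor and coregulator genes were lower, 5 of them in every *bArKO* library, against 9.82% of all genes. Genes known to respond to estrogen in other tissues had a median of 0.15 (0.11), and 2 of 10 were higher in every *bArKO* library. *Greb1*, a cofactor induced by ERα in breast and uterus, was at 0.697, 0.492 and 0.256 CPM and at 0.850, 1.30 and 0.925 CPM, close to the detection limit. *Ctsd*, the most abundant of them, overlapped at 225 to 342 CPM in Control and 215 to 270 CPM in *bArKO* libraries.

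The remaining pathways lay close to the median of all genes. Nuclear genes of the respiratory chain had 33 of 36 members lower, but 0 were outside the overlap. Their median log2 fold change was -0.08, and it was 0.04 without Control 3 and -0.16 without *bArKO* 1. Mitochondrially encoded genes had a median of 0.00 (-0.05 without Control 3), glycolysis and hypoxia genes of 0.03 (0.02), cholesterol synthesis of 0.04 (0.08), lysosome of 0.03 (0.07), heat shock of 0.01 (0.04) and the unfolded protein response of 0.02 (0.11). Signalling lists had medians of 0.09 (0.05) for glucocorticoid-responsive genes, -0.02 (-0.02) for the circadian clock, 0.03 (0.05) for p53 and senescence, 0.06 (0.10, and 0.00 without *bArKO* 2 or 0.16 without *bArKO* 1) for the insulin-like growth factor pathway, 0.14 (0.07) for BMP and 0.13 (0.08) for YAP and TEAD targets. Among the 11 YAP and TEAD targets tested, *Ccn2* was the 1 member higher in every *bArKO* library. In none of these lists did more than 3 members lie outside the overlap with all 6 libraries. Without Control 3, 6 of 13 unfolded protein response genes were higher in every *bArKO* library, against 10.7% of all genes. For the BMP list it was 5 of 19.

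Single genes were then taken by the size of edgeR's p among those that did not overlap. With a mean of at least 1 CPM and an absolute log2 fold change above 0.5, 173 genes were higher and 41 lower in every *bArKO* library, and the 10 with the smallest p are described in each direction. Among the higher genes *Lars2*, *Mir6236*, *Cplx3* and *Tenm4* came first, and among the lower genes *Hpdl* and *Wipf3*, which ranked before *Tenm4*. *Tenm4* (chr7:95820453-96560300 of GRCm39, plus strand), a teneurin that joins cells across synapses, was at 59.4, 74.0 and 52.8 CPM in Control 1, 2 and 3 and at 124, 162 and 153 CPM in *bArKO* 1, 2 and 3. Its log2 fold change was 1.24 with a standard error of 0.29 (1.14 without Control 3). *Tenm4* was the 1 DEG of DESeq2 on the 6 female libraries, with a DESeq2 adjusted p of 3.23e-08 and a log2 fold change of 1.23, higher in 3 of 3 *bArKO* libraries. With edgeR on the 12 libraries its edgeR adjusted p was 0.956 with the count filter and 2.26e-21 without it. The call thus changed with the filter, and it also changed with the libraries given to DESeq2. DESeq2 on the 6 libraries tested 29048 genes and edgeR on them 14952, so tool and genes tested changed together. In other groups *Tenm4* varied as widely, at 64.9, 146 and 64.5 CPM in male Control and 143, 75.8 and 126 CPM in male *bArKO* mice of 24 months, and at 74.3 to 165 CPM in 6-month female Control mice. *Cplx3* (complexin 3, chr9:57507275-57513575, minus strand), a regulator of vesicle fusion, was at 3.22, 4.06 and 5.77 CPM and at 8.55, 12.1 and 7.71 CPM, for a log2 fold change of 1.14 with a standard error of 0.23. In 24-month males it was also higher in every *bArKO* library, at 3.83 to 5.06 CPM in Control and 5.07 to 6.24 CPM in *bArKO* mice. The male log2 fold change was 0.34.

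*Lars2* (chr9:123195952-123291731, plus strand), the mitochondrial leucyl-tRNA synthetase, was at 68.8, 171 and 71.6 CPM in Control 1, 2 and 3 and at 394, 225 and 313 CPM in *bArKO* 1, 2 and 3. *Mir6236* (chr9:110110355-110110477, plus strand), a locus annotated as a microRNA, was at 39.1, 146 and 57.8 CPM and at 388, 197 and 275 CPM. Control 2 was the highest Control library and *bArKO* 2 the lowest *bArKO* library for both. The log2 fold changes were 1.58 and 1.83 with standard errors of 0.31 and 0.37. Both were DEGs when Control 2 was left out, with log2 fold changes of 2.15 and 2.57 and an edgeR adjusted p of 0.00428 each, and both passed when no count filter was used. With all 6 libraries and the filter the edgeR adjusted p was 0.956 for both. In 24-month males the log2 fold changes were -0.30 and -0.31. *Lars2* was at 171 to 303 CPM in the 6 males of 24 months and at 207 to 318 CPM in the 6 females of 6 months, and *Mir6236* at 150 to 247 CPM and at 175 to 313 CPM. Control 1 and 3 thus lay below all of these libraries, while *bArKO* 2 and 3 lay within the range of these 12 libraries for both genes. The small nuclear RNA *Rn7sk*, chosen after its values were seen, was also higher in every *bArKO* library, at 1.39, 2.21 and 1.79 CPM and at 7.11, 2.29 and 3.77 CPM, and *Rn18s-rs5*, an 18S ribosomal RNA locus chosen likewise, overlapped at 600 to 756 CPM in Control and 715 to 901 CPM in *bArKO* libraries. Whether these loci share a source of reads was not tested. The reads on *Mir6236* are reads of an mRNA library on its locus and do not measure the mature microRNA, whose sequence in RefSeq (GRCm38.p6, chr9:110281353-110281371, plus strand) is given with its seed, bases 2 to 8, in capitals.
mmu-miR-6236: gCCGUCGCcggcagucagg

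The other 6 genes higher in every *bArKO* library were *Gch1*, *Esrrg*, *Atp10b*, *Col12a1*, *Epha2* and *Nhsl3*, with log2 fold changes of 1.29, 0.75, 1.18, 0.96, 1.03 and 0.59. *Gch1*, the first enzyme of tetrahydrobiopterin synthesis and so needed for monoamines, was at 2.18, 1.23 and 2.05 CPM in Control 1, 2 and 3 and at 4.04, 6.51 and 3.01 CPM in *bArKO* 1, 2 and 3. *Col12a1*, a collagen that coats fibrils, was at 3.92, 4.79 and 4.10 CPM and at 6.70, 9.73 and 8.48 CPM. *bArKO* 2 was the highest library for both. The receptor tyrosine kinase *Epha2* was at 1.31 to 1.60 CPM in Control and at 2.47 to 3.68 CPM in *bArKO* libraries, and the flippase *Atp10b* at 1.39 to 1.54 CPM and at 2.83 to 4.32 CPM.

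The 10 genes lower in every *bArKO* library were *Hpdl*, *Wipf3*, *Penk*, *Sypl2*, *Olfm4*, *Fst*, *Glyctk*, *Mcm5*, *Otos* and *Tgif1*. *Wipf3*, a regulator of actin assembly and by far the most abundant, was at 693, 621 and 822 CPM in Control 1, 2 and 3 and at 466, 523 and 521 CPM in *bArKO* 1, 2 and 3, a log2 fold change of -0.50 with a standard error of 0.11 (-0.39 without Control 3). It was also lower in every *bArKO* male of 24 months, at 504 to 599 CPM against 603 to 649 CPM, a log2 fold change of -0.19. *Penk*, the precursor of the enkephalins, was at 36.2, 32.8 and 50.1 CPM and at 29.1, 26.7 and 24.2 CPM. *Hpdl*, a mitochondrial dioxygenase, was at 7.14, 5.65 and 9.10 CPM and at 3.51, 3.14 and 4.24 CPM. Control 3 was the highest library for these 3 genes, and without it the log2 fold change of *Penk* went from -0.57 to -0.37. It was also highest for *Fst*, which went from -1.27 to -0.82 without it. The other 7 lay at 1.72 to 8.23 CPM in Control libraries and had log2 fold changes from -1.27 (*Fst*, follistatin, which binds activins) to -0.55 (*Mcm5*, a subunit of the replicative helicase). For each of the 20 genes the exact two-sided permutation p was 0.1, the smallest possible, and since the rule took genes that do not overlap this adds nothing to it.

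Promoter sequences of the named genes were searched for the estrogen response element. The reason was that *Nestin-Cre* deletes an enzyme of estrogen synthesis in the neural lineage of *bArKO* mice. The full element, GGTCA and TGACC with 3 bases between them, was searched on both strands in RefSeq windows of 300 bases around gene starts (GRCm38.p6), and it is its own reverse complement, so the strands give the same matches. It was found in 23 of 32851 windows (0.07%). The shorter letters GGTCA, on either strand, were found in 40.5% of windows, and the full element contains them. Of 25 genes searched, 16 had a window, and their 25 windows held 0 full elements, while 11 held GGTCA or its complement TGACC. A stretch is shown for *Slc17a6* (chr7:51621730-51621829, plus strand, 100 to 1 bases before the start) and for *Cplx3* (chr9:57606432-57606531, minus strand, 250 to 151 bases before the start), with those letters in capitals.
Slc17a6: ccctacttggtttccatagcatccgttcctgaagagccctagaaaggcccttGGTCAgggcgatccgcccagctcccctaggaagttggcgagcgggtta
Cplx3: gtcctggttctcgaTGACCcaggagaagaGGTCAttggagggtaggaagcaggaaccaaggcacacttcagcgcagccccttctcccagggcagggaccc
A share of 11 in 25 windows was near that of all windows, and a match describes the letters and not a binding site.

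The genotype difference was compared with that in 24-month males and in 6-month females by interaction terms. With edgeR, 0 of 15412 genes (0%) had an adjusted p under 0.05 for the interaction of sex with genotype, where 246 had an unadjusted p under 0.05 and the smallest adjusted p was 1.00. For the interaction of age with genotype in females it was 0 of 15693 genes (0%), with 611 at an unadjusted p under 0.05 and a smallest adjusted p of 0.605. No other tool was run on these terms, and without Control 3 they again gave 0 and 0 genes by edgeR, with 373 and 627 at an unadjusted p under 0.05. In males the medians were -0.01 for the fibroblast matrix list, 0.06 for fibrillar collagens and proteoglycans, 0.10 for border macrophages and -0.10 for the postsynaptic scaffold. Of the 21 scaffold genes 4 were lower in every *bArKO* male, against 3.80% of all genes. The male fibroblast matrix sums were 76.7, 79.1 and 262 CPM in Control and 82.2, 210 and 80.5 CPM in *bArKO* mice, so single male libraries of either genotype reached beyond the 195 CPM of the highest 24-month *bArKO* female. In 6-month females the fibroblast matrix and scaffold medians were -0.09 and 0.06. For CA1, CA2 and CA3 genes the medians were -0.13, -0.29 and -0.13 in 24-month males. In 6-month females they were 0.27, -0.22 and -0.19. *Slc17a6* had a log2 fold change of 1.40 in 24-month males, where its groups overlapped, and of -0.23 in 6-month females. Differences between these medians were not tested.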

How the data were processed

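RNA of hippocampi was sequenced as bulk libraries, and the authors deposited raw counts of reads per Ensembl gene, 57186 genes in 24 libraries, without normalization. The submitters' notes name FastQC 0.12.0, Trim Galore 0.6.10, cutadapt 4.2, STAR 2.7.9a and HTSeq 2.0.2 on GRCm39. No strand setting is named for HTSeq beyond the paper's general statement that tools ran with their defaults, and reads from overlapping or antisense genes may be included, since 59 of 82 genes checked overlap a gene on the other strand, among them *Lars2*, *Mir6236*, *Ogn*, *Ccn2*, *Slc17a6*, *Tenm4* and *Xist*. Symbols were taken from GENCODE vM39. Groups came from the labels, with 3 libraries a group, each from a separate mouse. In the main fit, edgeR's p-values and standard errors use the spread within the groups of all 12 24-month libraries, males included. Counts were scaled with TMM, filtered with filterByExpr and tested with edgeR 4.0.16 (limma 3.58.1, R 4.3.3), with 1 coefficient per group in a fit of the 12 24-month libraries. Total counts of the 6 libraries ranged from 7615391 to 18872054.

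The genes named were taken from a set given by a rule, not all of which is printed: *Cyp19a1*, the estrogen receptors and *Xist*, the 5 genes of the study, the 10 higher and 10 lower genes with the smallest p that had a mean of at least 1 CPM, an absolute log2 fold change above 0.5 and no overlap, every DEG with all libraries or without Control 3, and of each list the most abundant gene and up to 3 with the smallest p. *Pou4f1*, *Gngt1*, *Alas2*, *Rn7sk* and *Rn18s-rs5* fall outside it, chosen with their values already seen. The members and lists were chosen with earlier results of these data known, so lists were described and not tested. Alternatives were DESeq2 1.42.0 on 12 or 6 libraries, edgeR on 6 or 24 libraries, RLE factors, other filters on low counts, the replicate number as a block, thinning to the smallest library, removal of the trend on exonic length (lowess span 0.3), adjusted p alone and each library left out. Sequences came from RefSeq (GRCm38.p6).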

Additional observations from a re-analysis of the deposited data

How the results depend on the processing

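The DEG count of 0 became 1 with DESeq2 on the 6 female libraries and 86 without a count filter, was 0 to 2 with 1 library left out, and was 0 in each other alternative. The 511 genes at an unadjusted p under 0.05 became 542 and 288 with DESeq2 on 12 and 6 libraries. With edgeR on 6 and 24 they became 311 and 877. They numbered 1216 without a filter and 419 to 1024 with 1 library left out. The replicate number as a block (replicate block) was fitted only with edgeR on 6 and gave 280. Its values therefore compare with those of edgeR on 6. DESeq2 tested 31707 and 29048 genes on 12 and 6, so tool and genes tested changed together. Of the genes at an unadjusted p under 0.05, the higher ones (275) numbered 419 with edgeR on 24 libraries and 804 without a filter. With 1 library left out they numbered 218 to 532. The lower genes (236) numbered 87 with DESeq2 on 6, 82 with edgeR on 6 and 51 with the replicate block in that fit. They numbered 458 with edgeR on 24, 412 without a filter and 362 with the length trend removed. Without Control 3 and *bArKO* 2 they numbered 424, and with 1 library left out 201 to 498. Genes that did not overlap numbered 1109 higher without a filter, 2829 higher and 2503 lower without Control 3 and *bArKO* 2, and 1195 to 1690 higher and 1038 to 1548 lower with 1 library left out; they were not computed for DESeq2, the length trend or the block. Leaving out Control 3 and *bArKO* 2 together was chosen after seeing the data. The habenula median (0.44) was 0.76 and 0.77 with DESeq2 on 12 and 6, 0.22 with edgeR on 6, 0.74 without a filter, 0.21 with the strict filter of 10 counts, 0.21 with the replicate block, 0.27 after thinning, 0.60 without both libraries and 0.30 to 0.54 with 1 left out. The fibrillar collagen median (0.85) was 0.73 and 0.73 with DESeq2, 0.73 with edgeR on 6, 0.73 without a filter, 1.05 with the strict filter, 0.98 after thinning, 0.94 without both libraries and 0.81 to 0.92 with 1 left out. With 1 left out the fibroblast matrix median lay at 0.85 to 1.17 and the postsynaptic scaffold median at -0.23 to -0.091. Over the 6 fits with 1 library left out, the median kept its sign in 29 of 61 lists and turned in 32. When the filter was reapplied without Control 3, the medians were 5.63 for pineal gland and -0.00536 for Cajal-Retzius genes. Signs of log2 fold changes turned for *Esr1* 5.49e-05 for no count filter, *Esr1* 0.00336 for the strict filter, *Esr1* 0.0148 for the replicate block, *Esr1* 0.00505 and *Prelp* -0.0222 for thinning, *Xist* -0.16, *Stab1* -0.0581, *Mylk* -0.24, *Agrn* -0.20, *Mbp* -0.0529, *Slc1a2* -0.24, *Igkc* 0.64, *C4b* -0.0773, *Ctsd* 0.0392 and *Prox1* -0.0302 for both libraries left out, *Prelp* -0.00141 for DESeq2 on 12 libraries, *Prelp* -0.00211 for DESeq2 on 6, *Prelp* -0.00133 for edgeR on 6, *Prelp* -0.00277 for edgeR on 24, *Prelp* -0.00758 for the length trend removed. With 1 library left out, signs turned within -0.14 to 0.15 at *Agrn*, -0.22 to 0.10 at *Ctsd*, -0.0376 to 0.23 at *Ctss*, -0.15 to 0.22 at *Esr1*, -0.0298 to 0.65 at *Htr2c*, -1.82 to 1.11 at *Igkc*, -0.0133 to 0.62 at *Islr*, -0.0741 to 0.34 at *Mylk*, -0.10 to 0.16 at *Prelp*, -0.17 to 0.22 at *Prox1*, -0.0397 to 0.22 at *Slc13a3*, -0.22 to 0.26 at *Slc1a2*, -0.0749 to 0.18 at *Stab1*, -3.71 to 1.68 at *Ttr*, -0.0772 to 0.76 at *Xist*. The pineal median was 0.95 with edgeR on 6, 0.77 with the replicate block in that fit, and 1.90 without Control 3 and *bArKO* 2. The strict filter left some lists without a value, and the cause of these differences was not tested.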
